A study of Homo sapiens with 3 samples.

Results

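The collagen chain genes are the 44 genes, of 19856 protein-coding genes with a canonical transcription start site (TSS) in GENCODE release 44 on GRCh37, whose symbols read COL, a number, A and a number. Membership was decided by name, but the choice was made with earlier results of these data known. The question put to the data was which of them carried an ETS1 binding site, where it lay and what sequence lay under it. ETS1 binding had been mapped by ChIP-Seq in SCC25, a line established from a tongue squamous carcinoma that the study uses as a model of mesenchymal head and neck cancer. The cells were untreated. Immunoprecipitation was done 3 times, with the polyclonal ETS1 antibodies C20 (2 samples) and 501A (1 sample), and a merged input was the control. The samples were combined by the authors into 1 consensus list of 26970 peaks, 26961 of them on nuclear chromosomes, which gives the position of each peak and no height, score or value per sample. Neither the spread between samples nor a difference between the antibodies can therefore be given here, and a gene without a peak is a gene for which none was listed. A peak was placed by its midpoint, either in the TSS window (5 kb upstream to 1 kb downstream of the canonical TSS), in the gene body or within 50 kb of it. The collagen TSS windows and bodies held 76 distinct peaks, 19 in windows and 57 in bodies outside windows, and a further 77 peaks lay within 50 kb. Shares carry 95% Wilson intervals, which cover the counting of genes or peaks only.

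Collagens are triple helices of 3 polypeptide chains, and each chain is the product of its own gene. Fibril-forming collagens give connective tissue its tensile strength, network-forming collagens build basement membranes, and others coat fibrils, anchor epithelia or span the plasma membrane. Squamous epithelial cells make type IV, VII and XVII collagens of the epithelial basement membrane zone, while most fibrillar collagen of a tissue is made by fibroblasts. ETS1 is a transcription factor of the ETS family, whose members contact DNA at the core GGAA, and AP-1 is a factor that often occupies the same regulatory regions.

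Of the 44 collagen genes, 19 had a peak in the TSS window (43.2%, interval 29.7 to 57.8%), where 56.0% of all protein-coding genes had one. A peak in the gene body was listed for 25 (56.8%, interval 42.2 to 70.3%), beside 54.1% of all genes, and a peak in either place for 27 (61.4%, interval 46.6 to 74.3%), beside 65.3%. These 3 intervals include the share of all genes. The canonical TSS itself lay inside a peak for 13 genes (29.5%, interval 18.2 to 44.2%), and the share of all genes, 52.3%, was above that interval. Counting peaks within 50 kb as well gave 34 genes (77.3%, interval 63.0 to 87.2%), beside 82.6% of all genes. The 44 genes thus divided into 13 with a window peak and a further body peak, 6 with a window peak alone, 8 with body peaks alone, 7 with peaks only in the flanks and 10 with none. The map of peaks along the genes shows a peak in the TSS window of all 6 type IV genes and none in the window or body of the 5 type VI genes. The shares of all genes are the 56.0% and 65.3% above. Both classes are small and are named for their counts, so no difference between classes was tested. The 6 type IV genes share 3 peaks, and COL4A4 and COL4A6 had none within 500 bp of the canonical TSS.

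**Figure D1:**
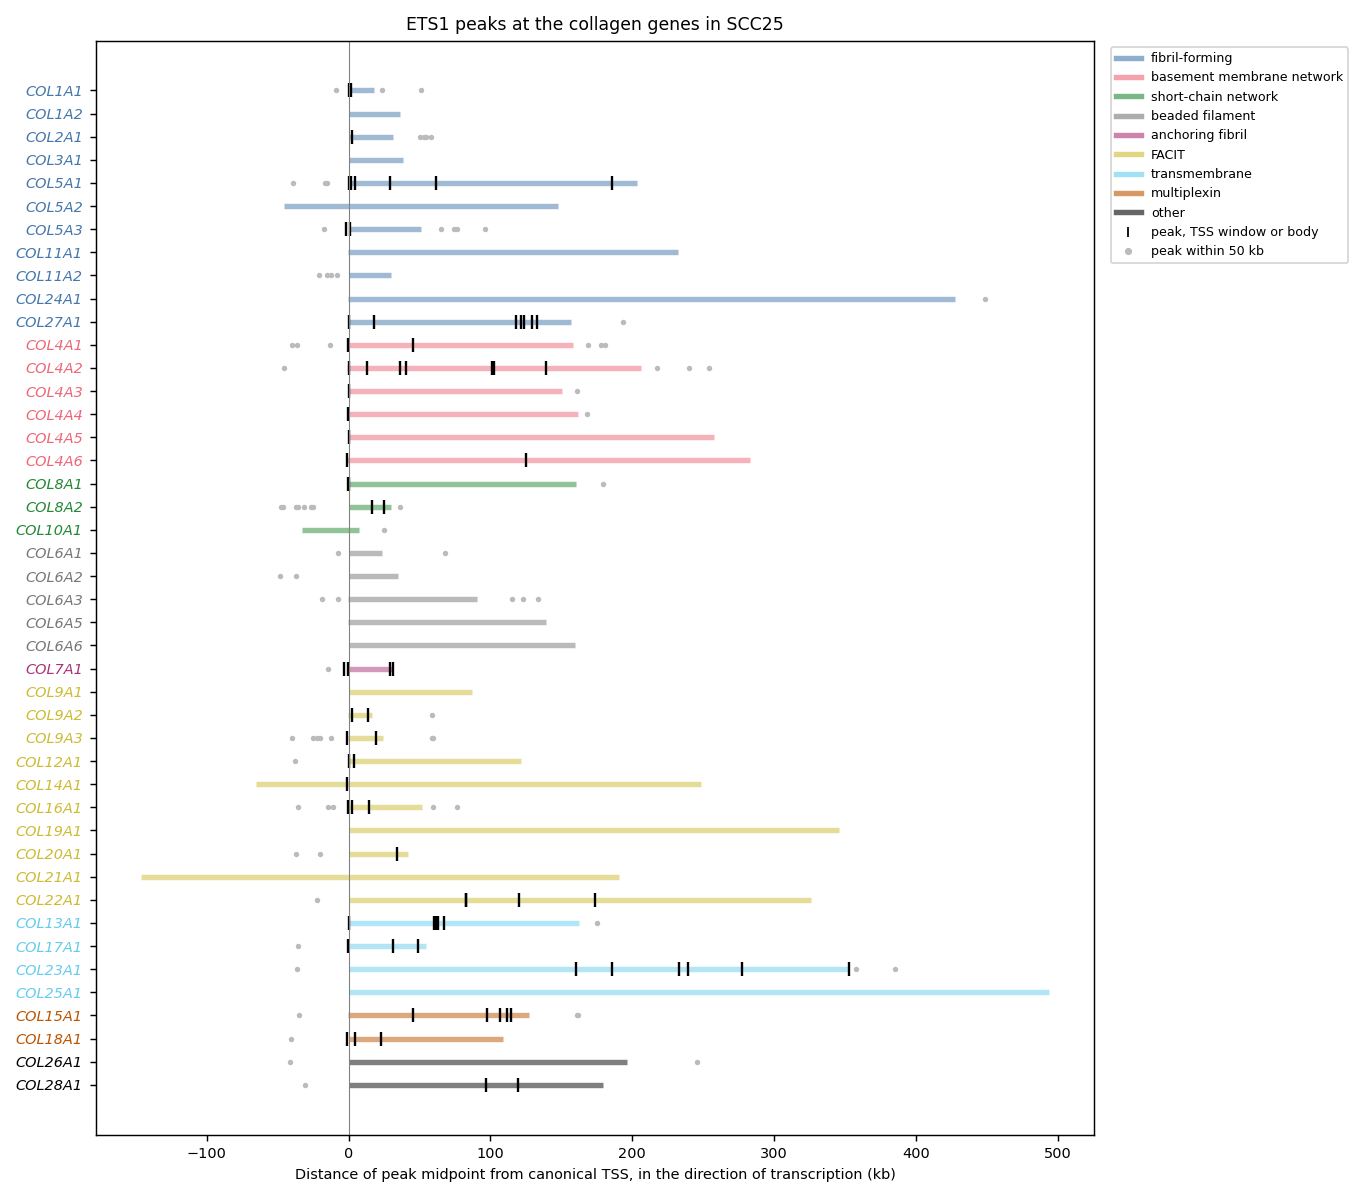
ETS1 peaks at the 44 collagen genes. Each row is a gene drawn from its canonical TSS in the direction of transcription (x axis, distance in kb), the coloured bar is the gene body in the colour of its class, black ticks are peaks in the TSS window or body, and grey dots are further peaks within 50 kb. Every type IV gene has a tick in its TSS window, the type VI genes have dots only or nothing, and ticks crowd in the 3′ parts of COL27A1 and COL15A1.

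The 6 genes of type IV collagen, the network-forming collagen of basement membranes, lie in the genome as 3 pairs that are transcribed away from each other, and 1 shared peak served the TSS windows of both genes in each pair. Sequence from these peaks is printed first, since these 3 peaks stand for 6 of the 19 genes with a window peak. Here and below, capitals mark GGAA or its complement TTCC, the AP-1 letters TGACTCA or TGAGTCA where present, and all sequence is GRCh37 (hg19), 5′ to 3′ on the strand named. For the COL4A1 and COL4A2 pair the 100 bp next to the COL4A1 start, on the side of COL4A2, are shown, for COL4A3 and COL4A4 the central 200 bp of the peak, and for COL4A5 and COL4A6 the part of the peak before the COL4A5 start.
COL4A1-COL4A2 shared promoter, chr13:110959505-110959604, plus strand: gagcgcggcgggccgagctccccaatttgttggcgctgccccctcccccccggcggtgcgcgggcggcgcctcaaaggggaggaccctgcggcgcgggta
COL4A3-COL4A4 peak centre, chr2:228029535-228029734, plus strand: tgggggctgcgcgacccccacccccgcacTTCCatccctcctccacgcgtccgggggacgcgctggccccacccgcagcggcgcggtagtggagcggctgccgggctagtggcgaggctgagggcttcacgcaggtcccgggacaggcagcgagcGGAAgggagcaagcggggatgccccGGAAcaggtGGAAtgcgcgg
COL4A5-COL4A6 peak, chrX:107682799-107683067, plus strand: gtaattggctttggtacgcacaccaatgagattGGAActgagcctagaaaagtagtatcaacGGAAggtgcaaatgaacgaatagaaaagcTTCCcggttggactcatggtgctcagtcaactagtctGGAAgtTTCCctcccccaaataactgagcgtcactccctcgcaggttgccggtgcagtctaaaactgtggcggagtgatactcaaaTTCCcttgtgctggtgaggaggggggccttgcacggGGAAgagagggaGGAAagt
The 100 bp next to the COL4A1 start had a GC content of 78.0% and held no GGAA. The centre of the COL4A3 and COL4A4 peak was also GC-rich (74.5%) and held 4 GGAA, 1 of them in the longer form CCGGAA. The COL4A5 and COL4A6 sequence had a GC content of 50.9% and 8 GGAA in 269 bp.

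COL4A1 and COL4A2 encode the chains found in almost all basement membranes, and their canonical starts lie 127 bp apart on chromosome 13. The shared peak, chr13:110958652-110961209, was 2558 bp wide and covered both starts, with its midpoint 427 bp upstream of the COL4A1 TSS and 300 bp downstream of the COL4A2 TSS. Over its whole width it held 26 GGAA, 4 of them as the core AGGAAG or AGGAAA, none of them in the 100 bp printed. COL4A2, 207 kb long, carried 6 further body peaks, 3 in intron 3, 2 in intron 4 and 1 in intron 17, between 12711 and 138918 bp from its TSS. COL4A1, 158 kb long, carried 1, in intron 1 at 45244 bp. The 2 genes of this pair therefore had the same peak at their starts and unequal numbers of peaks in their bodies.

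COL4A3 and COL4A4, which encode chains of specialised basement membranes such as that of the kidney glomerulus, shared a peak of 762 bp, chr2:228029254-228030015. Their starts are 419 bp apart, and the peak covered that of COL4A3, 295 bp downstream of it, while its midpoint was 714 bp upstream of the COL4A4 TSS. Neither gene had a further body peak. COL4A5 and COL4A6, X-linked genes whose products occur together in the basement membranes of skin and smooth muscle, have starts 1416 bp apart. Their peak, chrX:107682799-107683140, was the narrowest of the 3 at 342 bp and lay 98 bp upstream of COL4A5 and 1318 bp upstream of COL4A6, where another annotated COL4A6 start was 243 bp away. COL4A6 had 1 further peak, in intron 2 at 125241 bp. By the criteria used here (GC content of at least 55% and an observed to expected CpG ratio of at least 0.6 in 1 kb centred on the TSS) the first 4 type IV genes had CpG-rich starts and COL4A5 and COL4A6 did not.

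**Figure D2:**
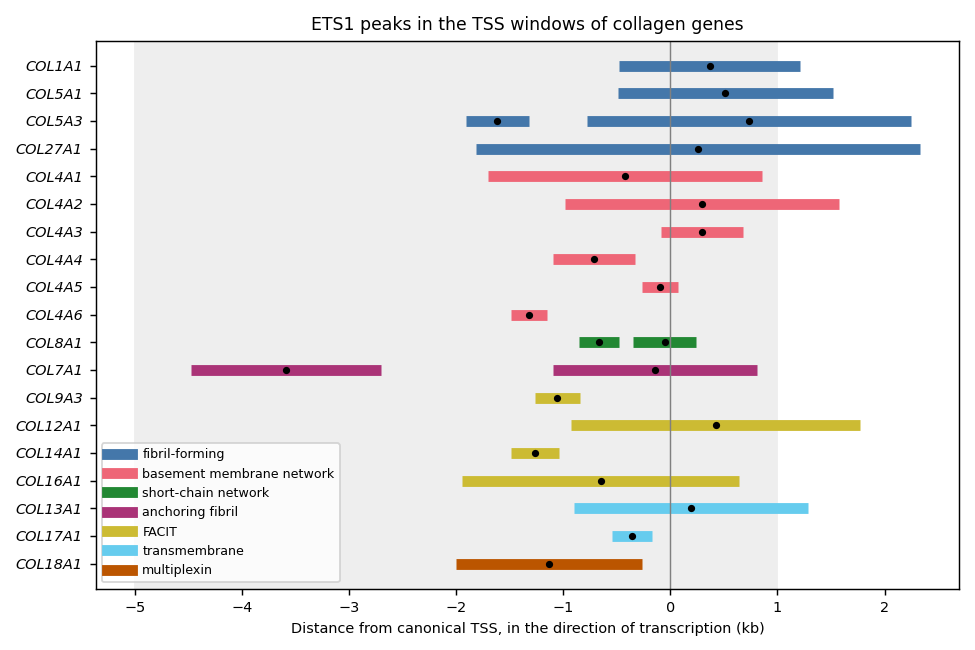
Window peaks of the 19 collagen genes that had one. Bars give the extent of each peak and dots its midpoint as the distance in kb from the canonical TSS in the direction of transcription (x axis), coloured by class, and grey shading is the TSS window. The 3 type IV pairs show the same peak from both sides, COL27A1 has the widest bar (4149 bp), and COL5A3, COL7A1 and COL8A1 have 2 peaks each.

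Among the 11 fibril-forming genes, 4 had a window peak, 5 had a body peak and 5 had either, where 56.0%, 54.1% and 65.3% of all genes did. In types I and V, the chains of one molecule did not all go together. Type I collagen, the main collagen of skin and bone, is built from the products of COL1A1 and COL1A2, and COL1A1 had 2 peaks while COL1A2 had none within 50 kb. Sequence from the COL1A1 peak is set beside the 200 bp upstream of the COL1A2 start, so that a listed and an unlisted region can be compared.
COL1A1 intron 1 peak centre, chr17:48278526-48278725, minus strand: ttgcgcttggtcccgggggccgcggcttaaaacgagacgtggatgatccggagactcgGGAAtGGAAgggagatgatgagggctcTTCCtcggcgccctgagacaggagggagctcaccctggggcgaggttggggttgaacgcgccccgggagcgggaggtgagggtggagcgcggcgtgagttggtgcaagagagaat
COL1A2 upstream, no peak, chr7:94024007-94024206, plus strand: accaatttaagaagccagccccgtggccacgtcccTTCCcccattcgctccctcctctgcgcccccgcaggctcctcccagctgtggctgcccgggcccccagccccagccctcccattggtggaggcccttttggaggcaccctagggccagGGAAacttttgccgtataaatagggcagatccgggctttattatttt
The COL1A1 centre held 3 GGAA and the COL1A2 sequence 2, so the letters GGAA were present in both. The core AGGAAG or AGGAAA occurred 1 time in the COL1A1 centre and 0 times in the COL1A2 sequence. The regions are not matched in place, since COL1A1 is shown in intron 1 and COL1A2 upstream of its TSS. Their GC contents were 65.0% and 62.0%.

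The COL1A1 window peak was 1699 bp wide, covered the TSS and had its midpoint 366 bp downstream, in intron 1. A separate peak of 1119 bp lay 1837 bp downstream in exon 2, 82 bp from the start of an annotated lncRNA. Neither COL1A1 nor COL1A2 had a CpG-rich start, and their CpG ratios were nearly the same, 0.486 and 0.492. COL3A1, the chain of type III collagen in extensible tissue, had no peak within 50 kb and a ratio of 0.294.

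Type V collagen sets the diameter of type I fibrils, and its genes divided in the same way. COL5A1 had a window peak of 2011 bp, 512 bp downstream of its TSS and covering it, and 5 further body peaks. Of these, 3 were in intron 1, at 1925, 4249 and 29036 bp, 1 was in intron 4 and 1 in intron 63, and 3 more peaks lay 15274, 16596 and 39014 bp upstream, each nearer to COL5A1 than to any other coding gene. COL5A1 was thus covered by 9 peaks from its upstream flank to its last introns. COL5A3 had a window peak of 3027 bp over its TSS, 732 bp downstream, and another of 581 bp 1614 bp upstream, which lay nearer to RDH8 (1131 bp). COL5A2 had none within 50 kb. Its start had a GC content of 42.2%, against 72.1% for COL5A1 and 62.3% for COL5A3.

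The remaining fibril-forming genes are chains of cartilage or minor fibrils. COL27A1, a cartilage chain whose gene spans 157 kb, had the widest of all 76 collagen peaks (4149 bp) over its TSS and 6 further body peaks. A single one was in intron 3, at 17792 bp, and 5 stood together between 117872 and 133044 bp in introns 36 to 42. The central sequences of 2 of these are shown, one because its peak stands nearest to the beginning of the deposited list of the 76 (position 868) and holds CCGGAA, the other because it alone of the 76 holds 2 facing GGAA cores in the arrangement GGAANNNNTTCC in its central 200 bp.
COL27A1 intron 37, chr9:117041118-117041317, plus strand: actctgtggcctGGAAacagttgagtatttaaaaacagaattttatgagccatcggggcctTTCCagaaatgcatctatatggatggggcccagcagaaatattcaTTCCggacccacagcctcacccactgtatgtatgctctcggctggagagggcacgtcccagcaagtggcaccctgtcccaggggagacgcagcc
COL27A1 intron 36, chr9:117035589-117035788, plus strand: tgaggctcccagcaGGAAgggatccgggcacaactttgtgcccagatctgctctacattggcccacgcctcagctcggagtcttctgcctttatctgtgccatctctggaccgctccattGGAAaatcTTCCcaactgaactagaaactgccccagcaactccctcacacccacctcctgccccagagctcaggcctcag
In the central 200 bp the facing arrangement was present at 1 of the 76 collagen peaks (1.32%) and at 0.556% of all nuclear peaks, and over whole peaks at 4 (5.26%, interval 2.07 to 12.8%) and at 3.23%. COL2A1, the chain of cartilage type II collagen, had 1 body peak of 2233 bp in intron 1, 2537 bp from its TSS. COL11A1, COL11A2 and COL24A1 had none in the window or body. COL11A1 had none within 50 kb, COL24A1 had 1 flank peak at the start of ZNHIT6 (132 bp), and COL11A2 had 4, of which 1 was 55 bp from the start of RXRB.

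Type VI collagen forms beaded microfibrils around cells. None of its 5 genes had a peak in the window or body, where 65.3% of all genes had one, and 5 genes fix a share only loosely. COL6A3 had 5 flank peaks, each nearer to its own start than to that of any other coding gene. They lay 7647 and 19078 bp upstream of its TSS, and 115182, 122631 and 133668 bp downstream, past the 3′ end of the 90.3 kb gene. The first of the upstream pair was 579 bp wide and the other 1673 bp. COL6A1 and COL6A2 had 2 flank peaks each. Both of those of COL6A2 lay between the genes, and 1 of them was counted for both genes. The closest was 7826 bp upstream of COL6A1, 545 bp from an lncRNA start. COL6A5 and COL6A6 had none. COL6A2 and COL6A6 had CpG-rich starts and the other 3 did not, so the absence of a listed peak was not confined to one sequence class.

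COL7A1 and COL17A1 encode collagens that fix stratified epithelia to the underlying tissue. Type VII collagen forms the anchoring fibrils below the basement membrane, and type XVII collagen spans the membrane of basal cells in hemidesmosomes. Both had a window peak close to the TSS, whose central 200 bp are printed.
COL7A1 promoter, chr3:48632804-48633003, minus strand: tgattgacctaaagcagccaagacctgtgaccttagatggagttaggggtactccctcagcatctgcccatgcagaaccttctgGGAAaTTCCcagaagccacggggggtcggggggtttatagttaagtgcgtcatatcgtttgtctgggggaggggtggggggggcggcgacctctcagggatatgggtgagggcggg
COL17A1 promoter, chr10:105845899-105846098, minus strand: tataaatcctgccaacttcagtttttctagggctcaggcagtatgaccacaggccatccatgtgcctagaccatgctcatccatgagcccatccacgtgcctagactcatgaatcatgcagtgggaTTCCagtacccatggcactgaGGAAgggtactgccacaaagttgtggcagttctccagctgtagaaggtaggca
COL17A1 intron 20, chr10:105814286-105814485, minus strand: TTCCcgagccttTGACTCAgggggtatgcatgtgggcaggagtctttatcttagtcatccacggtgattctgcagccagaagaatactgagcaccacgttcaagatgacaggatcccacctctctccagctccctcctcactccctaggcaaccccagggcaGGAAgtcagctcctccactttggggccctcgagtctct
The COL7A1 centre held GGAA and TTCC separated by a single base, and the COL17A1 promoter held 1 TTCC and 1 GGAA, the latter within the core AGGAAG. The COL17A1 intron 20 sequence is added because it holds an AP-1 site beside its 2 ETS letters.

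The COL7A1 promoter peak was 1907 bp wide with its midpoint 142 bp upstream of the TSS, and held 14 GGAA in all. Its other window peak, of 1772 bp, was 3587 bp upstream and lay nearer to UQCRC1 (1925 bp). At the 3′ end of this short gene (31.3 kb), 1 peak was in intron 114 and 1 over the last exon, exon 119, 524 bp from the start of UCN2. The COL17A1 promoter peak was narrow, at 377 bp, and lay 361 bp upstream without reaching the TSS. It held 9 GGAA, 3 of them as the core. Body peaks of COL17A1 were in intron 20 (31252 bp) and intron 47 (49224 bp). The COL17A1 start was poor in CpG, with a GC content of 40.4% and a ratio of 0.125, the lowest of the 44 except for COL28A1 (0.0792).

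The other transmembrane collagens were COL13A1, a component of cell adhesion sites, COL23A1 and COL25A1. COL13A1 had a window peak of 2189 bp over its TSS, 195 bp downstream. It also had 4 body peaks within a short stretch, at 59946, 61653 and 62913 bp in intron 2 and at 67312 bp in intron 3. COL23A1, 353 kb long, had no window peak and 6 body peaks, 5 of them in intron 2 between 160318 and 277636 bp. The sixth lay over the last exon, exon 29, 4988 bp from PHYKPL. COL25A1, the longest of the 44 genes at 494 kb and with a CpG-rich start, had none within 50 kb. In the other genes of this class, COL17A1 (54.6 kb), COL13A1 (162 kb) and COL23A1 had 3, 5 and 6 peaks in the window or body. Whether the number of peaks went with length in this class was not tested.

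FACIT collagens, fibril-associated collagens with interrupted triple helices, attach to the surface of fibrils, and their genes were divided. Of the 10 genes, 4 had a window peak and 7 a body peak, where 56.0% and 54.1% of all genes did. COL12A1, which coats type I fibrils, had a window peak of 2701 bp over its TSS, 424 bp downstream. It also had a body peak in intron 2 at 3619 bp, 358 bp from another COL12A1 start. COL16A1 had a window peak of 2588 bp over its TSS with the midpoint 650 bp upstream. Its body peaks were in intron 2 (2533 bp) and intron 22 (14083 bp), the latter 34 bp from another COL16A1 start. It had 2 flank peaks of its own 11206 and 14377 bp upstream. COL14A1, another chain of type I fibril surfaces, had a peak of 443 bp 1264 bp upstream. Among the type IX genes, which encode 3 chains of one cartilage molecule, COL9A3 had a window peak of 417 bp 1056 bp upstream (250 bp from another of its starts) and a body peak in intron 28. The COL9A3 body peak was 24 bp from another COL9A3 start. COL9A2 had 2 body peaks, 159 and 775 bp from other annotated COL9A2 starts, and COL9A1 had none within 50 kb.

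COL22A1, a chain of tissue junctions such as that of muscle and tendon, had no window peak and 4 narrow intron peaks of 288 to 713 bp, at 82423, 83076, 120465 and 173587 bp. COL20A1 had 1 body peak of 429 bp in intron 31, 163 bp from another annotated COL20A1 start. COL19A1 (346 kb) and COL21A1 (338 kb) had none within 50 kb. The COL20A1 peak is shown because its letters repeat.
COL20A1 intron 31, chr20:61958291-61958490, plus strand: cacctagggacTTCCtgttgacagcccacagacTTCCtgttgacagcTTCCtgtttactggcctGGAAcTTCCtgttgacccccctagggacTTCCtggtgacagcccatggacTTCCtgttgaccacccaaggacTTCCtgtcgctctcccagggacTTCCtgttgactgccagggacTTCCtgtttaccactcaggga
In these 200 bp, GGAA or TTCC occurred 10 times and the core AGGAAG or AGGAAA 9 times, each time as cTTCCt on this strand. The whole peak held 17 GGAA and 15 cores in 429 bp. By comparison, the COL27A1 peak of 4149 bp held 41 GGAA and 13 cores.

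COL15A1 and COL18A1, the multiplexins, are collagens of the basement membrane zone with long non-helical ends. COL18A1 had a window peak of 1734 bp 1133 bp upstream of its TSS, 911 bp from an lncRNA start, and 2 body peaks in intron 2, the nearer of them 246 bp from the start of the antisense gene COL18A1-AS2. COL15A1 had no window peak and 5 body peaks in 128 kb. The first was in intron 5 at 45638 bp, and the other 4 stood between 97639 and 114275 bp in introns 23 to 35. Both COL15A1 and COL27A1 thus carried a group of intron peaks in the distal part of the gene.

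Of the short-chain collagens, which form hexagonal networks, COL8A1 had 2 window peaks. They were 592 and 373 bp wide, 52 and 665 bp upstream of the TSS, and the first 229 bases of the nearer one are printed since they consist mostly of pyrimidines.
COL8A1 promoter, chr3:99357090-99357318, plus strand: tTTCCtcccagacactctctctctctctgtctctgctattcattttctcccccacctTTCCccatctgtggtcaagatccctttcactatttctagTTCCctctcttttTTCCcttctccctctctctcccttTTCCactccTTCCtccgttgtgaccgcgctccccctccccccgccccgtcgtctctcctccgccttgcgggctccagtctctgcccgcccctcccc
All 6 ETS letters here were TTCC on this strand. COL8A2 had 2 body peaks, in intron 2 and in the coding part of exon 3, the latter 164 bp from another COL8A2 start. It had 8 flank peaks, each nearer to the start of another coding gene. COL10A1, the collagen of hypertrophic cartilage, had 1 flank peak 97 bp from the start of NT5DC1. COL26A1 had 2 flank peaks that were nearer to other genes, and COL28A1 had 2 body peaks, in introns 21 and 27.

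Collagen genes are long. Their median length was 145 kb (17.3 to 494 kb) against 27.6 kb for all protein-coding genes, so body peaks were compared at similar lengths. A body peak was present in 4 of 6 collagen genes of up to 30 kb, beside 43.5% of all genes of that length. It was present in 6 of 12 between 30 and 100 kb (64.4% of all genes), in 9 of 14 between 100 and 200 kb (69.8%) and in 6 of 12 over 200 kb (65.4%). With 6 to 14 genes a class, these counts fix the shares only loosely. All body peaks together gave 1.0 peaks per 100 kb of collagen gene body (67 peaks in 6.69 Mb, exact Poisson interval 0.776 to 1.27), where the bodies of all protein-coding genes held 1.3. Counting only peaks over 1500 bp from any annotated TSS, collagen bodies held 0.658 per 100 kb (44 peaks, interval 0.478 to 0.883) and all bodies 0.476. These intervals treat peaks as independent, which neighbouring peaks such as those of COL27A1 may not be.

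**Figure D3:**
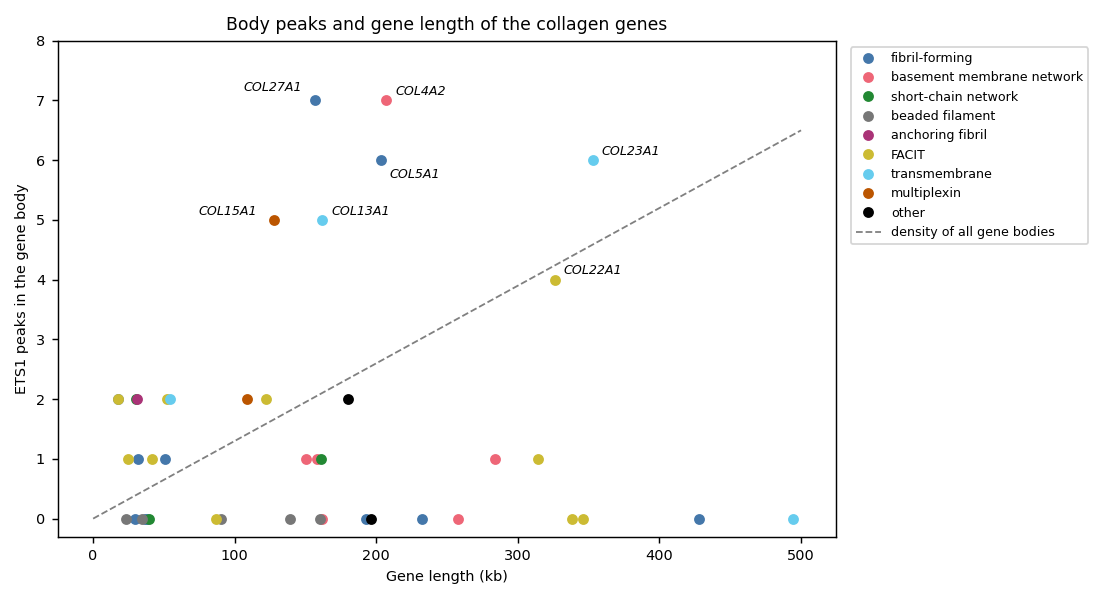
Number of ETS1 peaks in the gene body (y axis) against gene length in kb (x axis) for the 44 collagen genes, coloured by class. The dashed line is the density of all protein-coding gene bodies, 1.3 peaks per 100 kb. COL4A2 and COL27A1 have 7 body peaks, COL5A1 and COL23A1 have 6, and COL25A1, the longest gene, has none.

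The body peaks were mostly intronic. Of the 57 outside TSS windows, 53 were in introns of the canonical transcript, 5 of these in first introns, and 4 in exons. By distance to any annotated TSS, 44 of the 57 were over 1500 bp away and 9 were within 500 bp, at starts of other transcripts. Over all 76 peaks, 21 (27.6%, interval 18.8 to 38.6%) were within 500 bp of a TSS, beside 43.3% of nuclear peaks, 10 (13.2%, interval 7.31 to 22.6%) were between 500 and 1500 bp, beside 8.51%, and 45 (59.2%, interval 48.0 to 69.6%) were over 1500 bp away, beside 48.1%. The rule admits peaks by their place in genes and leaves out most intergenic ones, so these shares are partly set by it.

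Promoter sequence was then compared between collagen genes with and without a window peak. CpG-rich starts were present at 21 of the 44 genes (47.7%, interval 33.8 to 62.1%) and at 60.3% of all genes. Of these 21, 11 had a window peak (52.4%, interval 32.4 to 71.7%), where 74.1% of all genes with CpG-rich starts did. Of the other 23, 8 had one (34.8%, interval 18.8 to 55.1%), beside 28.4%. Collagen genes with a window peak had a median CpG ratio of 0.695 and those without one of 0.558, and for all genes the values were 0.788 and 0.43. Among the collagen genes with CpG-rich starts and no window peak were COL2A1, COL15A1, COL23A1, COL25A1 and COL6A2, and among those with a window peak and no CpG-rich start were COL1A1, COL7A1, COL16A1 and COL17A1.

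The collagen peaks had a median width of 874 bp (288 to 4149 bp), beside 969 bp for all nuclear peaks. Window peaks had a median of 1734 bp, where the peaks in TSS windows of all genes had 1294 bp. Body peaks outside windows had 850 bp, where all peaks over 1500 bp from a TSS had 706 bp, though not all of these body peaks lay that far from one. The place of a peak in the deposited list is the only other value it carries, and the meaning of that order was not given in the sources used here. Of the 76 peaks, 28 (36.8%, interval 26.9 to 48.1%) were among the first 13485 of the list, which held 50.0% of nuclear peaks. Of the 19 window peaks, 8 were (42.1%, interval 23.1 to 63.7%), beside 59.9% of the peaks in TSS windows of all genes. The collagen genes with a window peak in that part of the list were COL5A1, COL5A3, COL7A1, COL12A1, COL16A1, COL17A1 and COL18A1. None of the type IV pairs was among them.

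The ETS core AGGAAG or AGGAAA, read on both strands in the central 200 bp, was present at 40 of the 76 collagen peaks (52.6%, interval 41.6 to 63.5%) and at 44.0% of all nuclear peaks. By place, the core was present at 7 of 19 window peaks (36.8%, interval 19.1 to 59.0%), beside 33.8% of all peaks within 500 bp of a TSS, and at 33 of 57 body peaks (57.9%, interval 45.0 to 69.8%), beside 52.7% of all peaks over 1500 bp from one. Here and for AP-1 below, the sets set side by side are only roughly alike in place. Windows reach 5 kb upstream, and 44 of the 57 body peaks were over 1500 bp from a TSS. The letters GGAA, which the core contains, were present at 92.1% of collagen peaks and 89.9% of all peaks, too often to tell regions apart. The longer form CCGGAA was present at 5 (6.58%, interval 2.84 to 14.5%), beside 11.9%. These were the COL4A3 and COL4A4 peak, the upstream COL7A1 peak and body peaks of COL9A3, COL15A1 and COL27A1. The 11.9% is the share of all nuclear peaks, which were not matched in place. By place, CCGGAA was at 3 of 57 body peaks (5.26%, interval 1.81 to 14.4%), beside 6.64% of all peaks over 1500 bp from a TSS. It was at 2 of 19 window peaks (interval 2.94 to 31.4%), beside 18.3% of all peaks within 500 bp of one. Both intervals include the share beside them.

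AP-1 letters were present at 7 of the 76 peaks (9.21%, interval 4.53 to 17.8%), beside 12.2% of all peaks. All 7 were body peaks, which makes 12.3% of the 57 (interval 6.08 to 23.2%) beside 19.8% of all peaks over 1500 bp from a TSS. None of the 19 window peaks held them (interval up to 16.8%), beside 3.71% of all peaks within 500 bp of a TSS. For all collagen peaks together the order turned with wider windows. With 600 bp, 31.6% of collagen peaks (interval 22.2 to 42.7%) and 25.2% of all peaks held the letters, and over whole peaks 43.4% (interval 32.9 to 54.6%) and 33.0%. By place the order with 600 bp did not turn for body peaks. Their share was 38.6% (interval 27.1 to 51.6%), beside 39.3% of all peaks over 1500 bp from a TSS. Of the window peaks, 2 of 19 held the letters with 600 bp (interval 2.94 to 31.4%), beside 9.46%. Over whole peaks the shares were 26.3% for collagen window peaks (interval 11.8 to 48.8%), beside 18.6%. Those of collagen body peaks were 49.1% (interval 36.6 to 61.7%), beside 45.0%. Each of these intervals includes the share beside it. In the central 200 bp, the 7 peaks belonged to COL4A1, COL7A1, COL16A1, COL17A1, COL28A1 and, with 2, COL22A1. The COL17A1 site is printed above, and that of the COL4A1 intron 1 peak is given here.
COL4A1 intron 1, chr13:110914160-110914359, minus strand: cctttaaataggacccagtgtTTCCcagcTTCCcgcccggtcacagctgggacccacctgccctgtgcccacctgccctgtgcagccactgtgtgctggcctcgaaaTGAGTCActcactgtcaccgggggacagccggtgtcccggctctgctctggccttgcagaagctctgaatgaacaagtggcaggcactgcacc
This sequence held 1 AP-1 site and 2 TTCC. A match of letters describes the sequence and does not show that a factor was bound to it.

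**Figure D4:**
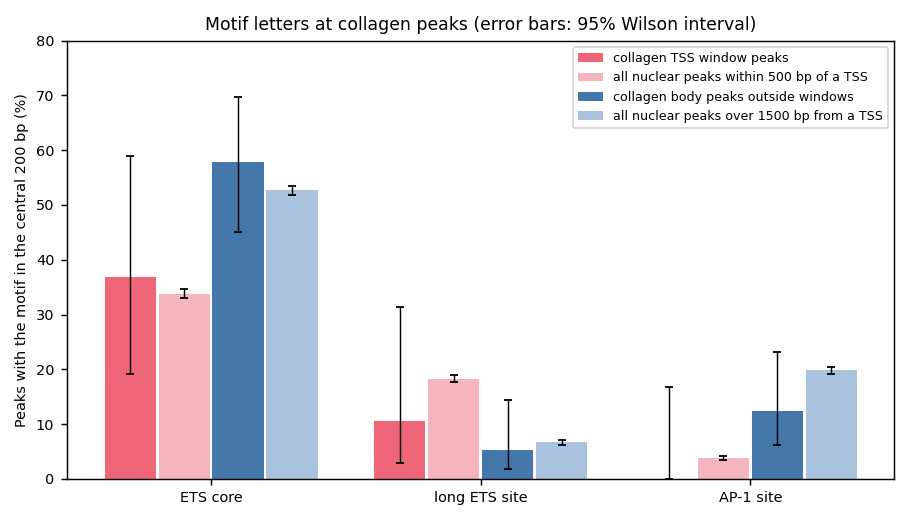
Share of peaks (y axis, percent) with motif letters in the central 200 bp on either strand. ETS core is AGGAAG or AGGAAA, long ETS site is CCGGAA and AP-1 site is TGACTCA, bars are collagen window peaks (19), all nuclear peaks within 500 bp of a TSS, collagen body peaks outside windows (57) and all nuclear peaks over 1500 bp from a TSS, and error bars are 95% Wilson intervals. Collagen body peaks had the core in 57.9% and collagen window peaks in 36.8%, and each collagen interval includes the share of all peaks beside it. The collagen sets and those beside them are only roughly alike in distance from a TSS.

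A chain becomes collagen only after its prolines and lysines are hydroxylated, 3 chains are folded, and the molecule is exported, trimmed and crosslinked. The 45 genes listed for these steps and for collagen receptors were counted in the same way. The lists were chosen with earlier results of these data known, and their genes were not compared by CpG class of the start. Of the 17 biosynthesis and folding genes, 14 had a window peak (82.4%, interval 59.0 to 93.8%), beside the 56.0% of all genes. The 14 genes included the prolyl 4-hydroxylase subunits P4HA1 and P4HB, all 3 lysyl hydroxylases (PLOD1, PLOD2 and PLOD3), the prolyl 3-hydroxylases P3H1, P3H2 and P3H3, the collagen chaperone gene SERPINH1, the isomerase genes PPIB and FKBP10, and CRTAP, P3H4 and COLGALT1. The 3 without one were P4HA2, which had 3 body peaks, P4HA3 and COLGALT2. Of the 5 export genes, 4 had a window peak (MIA2, SEC23A, SEC24D and KLHL12) and MIA3 had a body peak only.

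Among the 13 genes of processing and crosslinking, 8 had a window peak (61.5%, interval 35.5 to 82.3%), an interval that includes the 56.0% of all genes. These were the propeptide proteases BMP1, TLL1, TLL2 and ADAMTS14 and the lysyl oxidases LOX, LOXL1, LOXL3 and LOXL4. LOXL1 had the most, with 3 window peaks and 6 in the window or body. LOXL2 had 4 body peaks and no window peak, PCOLCE and PCOLCE2 had body peaks only, and ADAMTS2 and ADAMTS3, which remove N-propeptides, had neither. Of the 10 receptor genes, 3 had a window peak (30.0%, interval 10.8 to 60.3%, which also includes 56.0%), namely DDR1 and the integrin genes ITGA2 and ITGB1, whose products pair to bind collagen on epithelial cells. DDR2, ITGA1, ITGA10, ITGA11 and MRC2 had body peaks alone, and GP6 and LAIR1, receptors of platelets and leukocytes, had none in either place. Over the 4 lists, 29 of 45 genes had a window peak (64.4%, interval 49.8 to 76.8%), beside the 56.0% of all genes, which lies inside that interval.

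**Figure D5:**
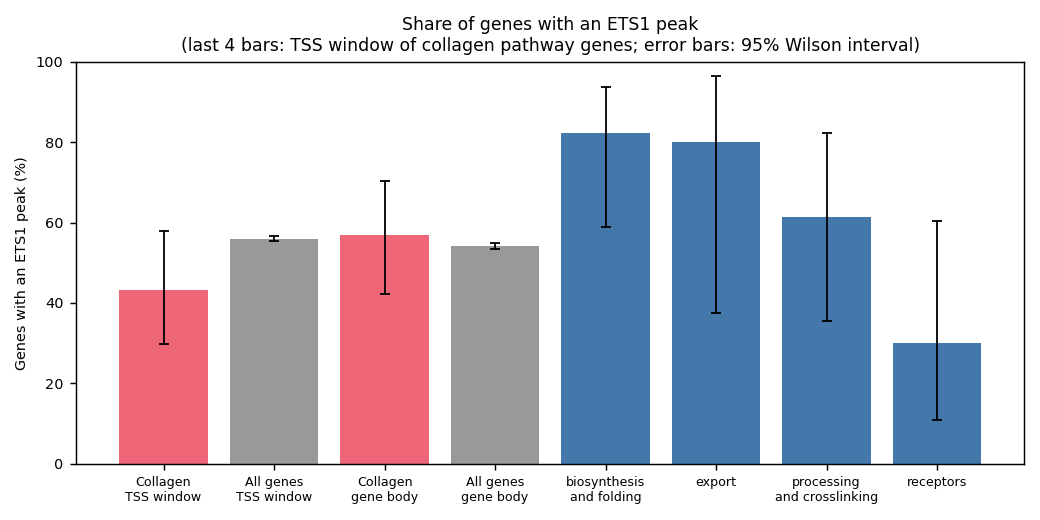
Share of genes with an ETS1 peak (y axis, percent) for the 44 collagen genes (red) and all 19856 protein-coding genes (grey) in the TSS window and gene body, and for the 4 lists of collagen pathway genes in the TSS window (blue). Error bars are 95% Wilson intervals, and the share is 43.2% for collagen TSS windows, 82.4% for biosynthesis and folding genes and 30.0% for receptors.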

How the data were processed

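ETS1 ChIP-Seq of SCC25 cells comprised 3 samples (C20 antibody 2, 501A antibody 1). Per the submitters' processing notes and the methods, the authors mapped reads to hg19 with Bowtie 1.1.1, keeping reads with a single locus, pooled files with SAMtools 1.3, ran MACS2 with a merged input as control and kept peaks of reproducible rank by IDR (irreproducible discovery rate). The authors deposited 1 BED list with 3 columns (chromosome, start and end), whose unit is base positions. It carries no signal, and the depth of a single sample is not given in it, so the precision stated is that of counting. Positions were made 1-based. Genes came from GENCODE release 44 on GRCh37, with 1 canonical TSS for each of 19856 of 20176 protein-coding genes. Motifs were searched in 200 bp at peak midpoints. The code was tested on simulated data. All 44 collagen genes were named by class, with positions for genes with a window peak or most body peaks, and pathway genes by list. The members and lists were chosen with earlier results of these data known. COL8A1 and COL20A1 sequences were chosen for printing after their peaks were seen. The promoter table of RefSeq, of another build, was not used, and mitochondrial peaks were left out. The alternatives were the first 13485 peaks, an overlap of 1 bp in place of the midpoint, peaks less than 1 kb apart joined, starts of all transcripts, 500 bp in place of the TSS window, other flanks and other motif windows. Counts were made in Python 3.11.15 (pandas 2.3.3, numpy 2.4.6), sequence was read with pysam 0.24.0, intervals came from scipy 1.17.1 and figures from matplotlib 3.10.9.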

Additional observations from a re-analysis of the deposited data

How the results depend on the processing

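Of 43 alternatives to 11 results, 29 gave a count within 1.5 times the reported one or a value within its interval, and 14 did not. With the first 13485 peaks of the list, which keeps fewer peaks by construction, 7 collagen genes had a window peak, 15 a body peak and 16 either, the distinct peaks numbered 28, the density was 0.344 per 100 kb, the median width 1119 bp and the AP-1 share 3.57%, and 11 pathway genes had a window peak. In that setting 36.4% of all genes had a window peak, beside 15.9% of collagen genes. For its body and either counts, density, median width and AP-1 share, no value over all genes or peaks was computed. Within 500 bp of the TSS, 11 collagen genes had a peak (25.0%, beside 46.8% of all genes), and at the starts of all transcripts 25 did (56.8%, beside 60.6%). With motif windows of 600 bp the core share of collagen peaks was 86.8% (79.2% of all peaks) and the AP-1 share 31.6% (25.2%). With the whole peak the core share was 96.1%, CCGGAA 21.1% (37.4%) and AP-1 43.4% (33.0%). The AP-1 share of collagen peaks was thus below that of all peaks in 200 bp and above it in both wider windows. For collagen body peaks alone it was not above with 600 bp (38.6%, beside 39.3% of peaks over 1500 bp from a TSS). Over whole peaks, CCGGAA was at 15.8% of collagen body peaks, beside 19.1% of those distant peaks. It was at 36.8% of collagen window peaks, beside 58.0% of peaks within 500 bp of a TSS. The facing arrangement was at 4 collagen peaks in either wider window (5.26%, beside 1.72% and 3.23%) and at 1 in 200 bp. Counts within 50 kb ranged from 26 to 38 genes. No paired analysis was possible because the list is pooled over the samples, and for the same reason no sample could be left out. Peak height, summits and the level of any collagen transcript were not analysed here, so a wide and a narrow peak, or a listed and an unlisted gene, cannot be ranked by binding.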

Other observations

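The 77 further peaks within 50 kb of collagen genes were mostly nearest to other genes, with 20 having a collagen gene as the coding gene with the nearest canonical TSS. Of the genes with a window peak, COL5A1 had 3 such peaks and COL16A1 2, all upstream, COL1A1 had 1, 9189 bp upstream, and COL18A1 1, 40751 bp upstream. COL4A1 had 3 past its 3′ end, at 168751, 177871 and 180548 bp from its TSS. COL15A1, with body peaks only, had 1 at 35040 bp upstream, and its 2 downstream flank peaks were 426 and 438 bp from starts of TGFBR1, which encodes a TGF-β receptor. COL2A1 had 4 flank peaks past its 3′ end, 3 of them between 3603 and 8205 bp from a start of VDR, the vitamin D receptor gene.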
